A study of Bos taurus with 6 samples.

Results

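The genes of the transforming growth factor beta (TGF-beta) and bone morphogenetic protein (BMP) family were followed through a methylation scan of bovine skin fibroblasts. Members were taken by gene symbol: the 3 kb windows on chromosomes 1 to 29 labelled TGFB1 to TGFB3, TGFBR1 to TGFBR3, LTBP1 to LTBP4, BMPR1A, BMPR1B, BMPR2, INHBA, INHBB, or SMAD, BMP or GDF with a number. This gave 718 of 902984 windows and 40 genes, of which 22 are ligands with 242 windows, 3 are latent binding proteins with 135, 6 are receptors with 168 and 8 are SMADs with 157. The remaining 16 windows belong to BMP1, which carries a BMP name but is a metalloprotease that trims procollagen and other matrix proteins. No window was labelled LTBP4.

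Dermal fibroblast cultures came from 3 Holstein heifers, numbered 1 to 3, each sampled at 5 and at 16 months of age, and 1 library was made per animal and age. All 6 cultures were at passage 5 and received no treatment. The study chose these animals for a middling response to lipopolysaccharide, so they stand for that range of animals only. MIRA-Seq (methylated CpG island recovery assay sequencing) pulls sheared DNA down with methyl-binding proteins and counts the reads, so that a window gains reads both with the methylation of its CpGs and with the number of CpGs it holds, and these cannot be told apart here. No transcript was measured in these libraries. The study's RNA-Seq used other aliquots of cultures from the same animals and ages, and was not analysed here. Neither the expression of the family nor the cell type was therefore checked against marker transcripts.

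Ligands of this family are secreted as dimers. TGF-beta is stored in the extracellular matrix in a latent complex with the latent TGF-beta binding proteins (LTBPs), and fibroblasts both release and answer it. A ligand brings together type II and type I receptor kinases, the type I receptor phosphorylates receptor SMADs (SMAD2 and SMAD3 for TGF-beta and activin, SMAD1, SMAD5 and SMAD9 for BMP), and these enter the nucleus with SMAD4, whereas SMAD6 and SMAD7 inhibit the pathway.

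Libraries held 19.9 to 43.6 M counted reads, of which 13091 to 28634 fell in member windows, and the median member window held 4 to 13 reads. Between 11 and 108 of the 718 member windows were at 0 in a library. Levels are given as RPKM, the reads of a window per kilobase and per M matched reads of its library. A count of 0 in a window allows up to 3 reads, or 0.0147 to 0.0308 RPKM depending on the library, and this limit covers counting error only. Across the 718 windows the rank correlation between libraries was 0.867 to 0.918 within an animal and 0.824 to 0.903 between animals, a description over windows that share depth and base composition. The spread given below is the SD over the 6 libraries, which come from 3 animals and are not fully independent.

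The start of a gene was taken as the first window that carries its label, read along its strand, and the body as all later windows of that label. In 33 of the 40 members the start window was labelled with a coding exon. Whether a start window holds the transcription start was not checked. The start was below the body in most of the family, with bodies of 1.22 RPKM in INHBB, 0.448 in BMP1 and 0.803 in GDF5 beside starts of 21, 12 and 24 reads in all 6 libraries together. It was lower in 6 of 6 libraries in 26 of the 40 genes (65.0%), against a background of 47.0% of the 20414 labelled genes that could be compared. It was higher in 6 of 6 libraries in 3 genes, GDF15, SMAD1 and TGFBR3 (7.50%, against 16.6% of all genes), and mixed in 11. Stacked reads were found at 8 member starts, those of SMAD1, TGFBR3, TGFB1, TGFB3, SMAD2, SMAD9, BMPR2 and BMP10. There the highest depth reached 0.5 of the read count in at least 1 library. Without stacked windows 32 members could be compared. The start was lower in 6 of 6 libraries in 21 of them (65.6%, against 46.4% of 16848 genes) and higher in 1, GDF15. Flipping the signs of the 6 differences of a gene in all possible ways (an exact, two-sided permutation test) gives a p of 0.0312 at the least. Every gene with the same sign in 6 libraries reached it, with an adjusted p of 0.0492 over all genes compared. These values treat the 2 cultures of an animal as independent, and with signs flipped by animal the smallest possible p would be 0.25, so no gene could pass as a test over animals. The median ratio of body to start was 3.22 in the family and 1.81 over all genes. Whether the family differs from other genes in these shares was not tested.

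Start levels were low in every class, and the classes were ordered by their bodies. The median start of the ligands was 0.0432 ± 0.0150 RPKM (SD, n = 6 libraries), that of the LTBPs 0.0419 ± 0.0286, that of the receptors 0.0274 ± 0.0119 and that of the SMADs 0.0252 ± 0.0112. The ligand median was above the SMAD median in 6 of 6 libraries, although the libraries of both classes overlapped (0.0240 to 0.0644 and 0.0138 to 0.0367 RPKM). The median over all labelled genes was 0.0471 ± 0.0169 RPKM. The median body was 0.537 ± 0.0992 RPKM in the LTBPs, 0.198 ± 0.0258 in the ligands, 0.144 ± 0.0315 in the SMADs and 0.0596 ± 0.0147 in the receptors. Over all genes it was 0.0851 ± 0.0200. By the mean over genes, bodies were at 0.526 RPKM in the LTBPs, 0.321 in the ligands, 0.173 in the SMADs and 0.105 in the receptors. Over all genes that mean was 0.318, so the SMADs lay above all genes by the median and below them by the mean. The median LTBP body was above the median ligand body in every library (lowest against highest library 0.405 against 0.242 RPKM). The median ligand body was above the median receptor body in the same way (0.171 against 0.0795 RPKM). The LTBP median is over 3 genes only, and the LTBP1 body, at 0.0498 ± 0.0182 RPKM, lay below the ligand median. The median ligand body was also above the median SMAD body in 6 of 6 libraries, although the libraries overlapped (0.171 to 0.242 and 0.108 to 0.189 RPKM).

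**Figure D1:**
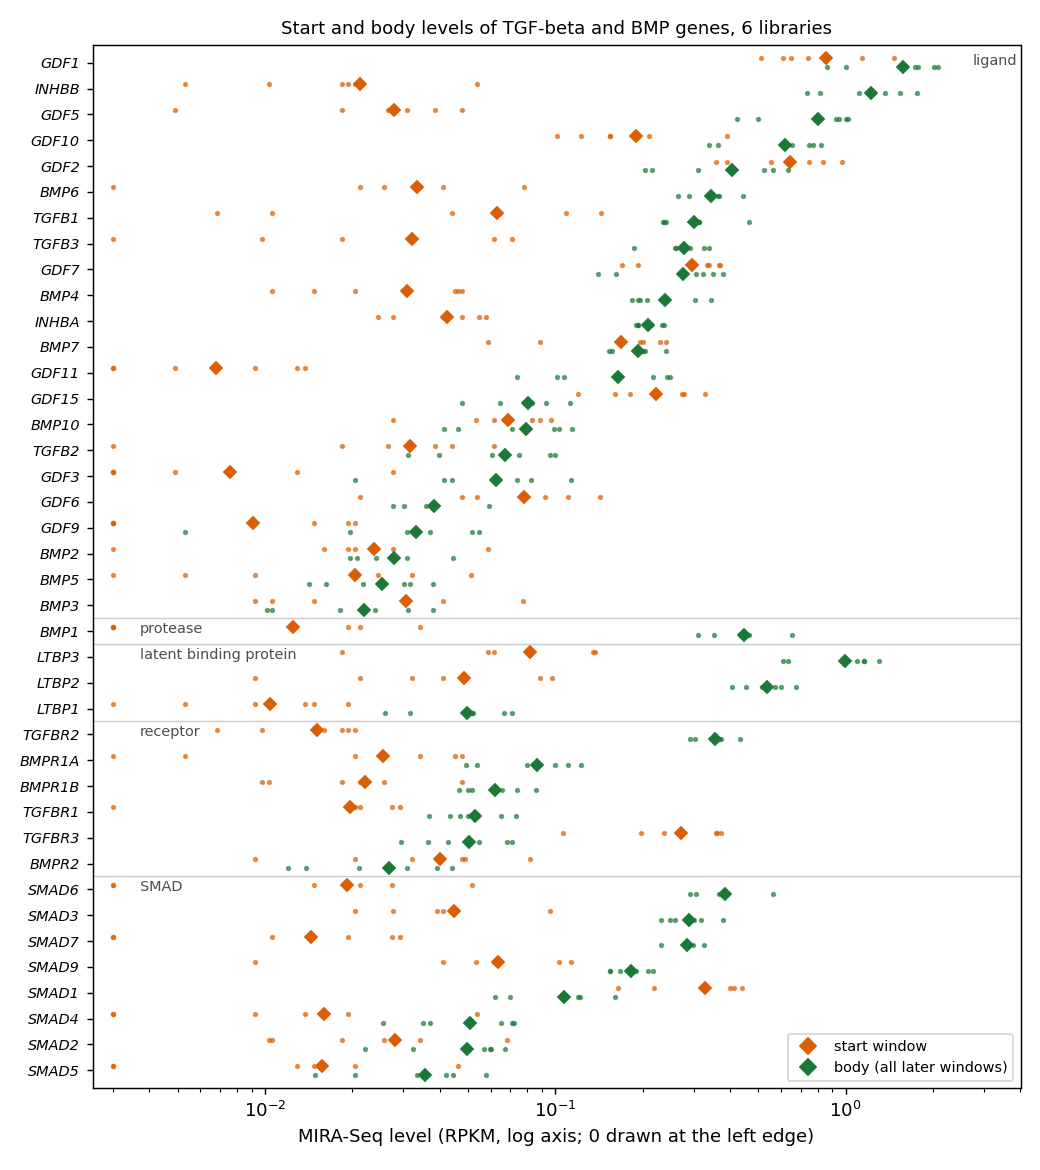
Level of the start window (orange) and of the body (green) of each of the 40 genes in RPKM on a log axis, grouped by class. Small points are the 6 libraries, with a level of 0 drawn at the left edge, and diamonds are their mean. In 26 genes the start lies below the body in every library, and SMAD1, TGFBR3 and GDF15 show the opposite order. The starts of SMAD1, TGFBR3, TGFB1, TGFB3, SMAD2, SMAD9, BMPR2 and BMP10 hold stacked reads.

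Among the ligands, the 3 TGF-beta isoforms all had a start below the body in 6 of 6 libraries, although the starts of TGFB1 and TGFB3 hold stacked reads. The start of TGFB1, the isoform best known for driving collagen production in fibroblasts, lay at 0.144, 0.109 and 0.0106 RPKM at 5 months (animals 1, 2 and 3) and at 0.0440, 0.0645 and 0.00684 RPKM at 16 months. Its body lay at 0.234 to 0.464 RPKM. The window upstream of that start, which carries the label of another gene, held 0.622 RPKM on average, so the order of start and body in TGFB1 turns if the upstream window is counted with the start. TGFB3 had 0.0321 ± 0.0286 RPKM at the start and 0.277 ± 0.0554 in the body, and TGFB2 0.0315 ± 0.0214 and 0.0670 ± 0.0285.

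INHBB, the beta B subunit of activins and inhibins, showed the widest gap of the family between start and body. Its start held 1, 3 and 1 reads at 5 months (animals 1, 2 and 3) and 11, 2 and 3 reads at 16 months, a mean of 0.0213 ± 0.0170 RPKM. Its body, the 2 windows directly downstream, held 0.735 to 1.76 RPKM with a mean of 1.22 ± 0.405. A start of 1 to 11 reads thus adjoined some of the best covered windows of the family. INHBA, the beta A subunit, had the same order with 0.0423 ± 0.0139 RPKM at the start and 0.209 ± 0.0213 in the body.

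BMP4 had 0.0308 ± 0.0173 RPKM at the start and 0.238 ± 0.0681 in the body, and its start was lower in 6 of 6 libraries. BMP2, a ligand of bone and cartilage formation, was low throughout, with 0.0237 ± 0.0194 at the start and 0.0279 ± 0.00914 RPKM in the body over 24 and 99 reads in all, and its start was lower in 4 of 6 libraries. BMP7 differed from both in its start of 0.169 ± 0.0761 RPKM, close to its body of 0.192 ± 0.0326. That start held 0.195, 0.200 and 0.0586 RPKM at 5 months and 0.240, 0.230 and 0.0889 RPKM at 16 months, so that both libraries of animal 3 lay below the other 4. The mean start over all labelled genes was lowest in animal 3 too, at 0.160 and 0.173 RPKM against 0.245 to 0.256.

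The highest start of all members was that of GDF1, a ligand of left-right patterning, at 0.854 ± 0.371 RPKM, with the highest body as well at 1.58 ± 0.522. In the RefSeq table its neighbour is CERS1, and a window carries only 1 label, so reads of an adjoining gene in the same window cannot be told apart. The lowest start of a ligand was that of GDF11, a close relative of myostatin, at 0.00678 ± 0.00610 RPKM from 6 reads in all, beside a body of 0.165 ± 0.0793. The lowest body was that of BMP3 at 0.0220 ± 0.0112 RPKM. In GDF15, a ligand induced by cellular stress, the start was the higher part, with 0.223 ± 0.0810 against 0.0803 ± 0.0222 RPKM in its single body window.

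All 3 labelled latent binding proteins had a lower start in 6 of 6 libraries. LTBP3 had the highest level of its class, with 0.0818 ± 0.0466 RPKM at the start and 0.993 ± 0.297 in the body, and LTBP2 followed with 0.0484 ± 0.0365 and 0.537 ± 0.0992. LTBP1 spans 92 windows, none above 0.206 RPKM on average, with 0.0104 ± 0.00698 at the start and 0.0498 ± 0.0182 RPKM in the body. BMP1 had a body of 0.448 ± 0.118 RPKM and 12 reads in all at its start (0.0125 ± 0.0146 RPKM), with 0 reads in 3 of the 6 libraries.

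Among the receptors, TGFBR2 and TGFBR3 lay at opposite ends. TGFBR2, the type II kinase that binds TGF-beta, had 0.0205, 0.0193 and 0.0160 RPKM at the start at 5 months (animals 1, 2 and 3) and 0.00978, 0.0184 and 0.00684 RPKM at 16 months. Its body held 0.290 to 0.432 RPKM, the highest of the class. TGFBR3, or betaglycan, a co-receptor that presents the ligand, had 0.236, 0.373 and 0.106 RPKM at the start at 5 months and 0.357, 0.360 and 0.198 RPKM at 16 months. Its body lay at only 0.0295 to 0.0709 RPKM, and the start, a window with stacked reads, was above the body in every library. Its highest single window lay 120 kb into the gene, with 0.280 ± 0.0851 RPKM.

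TGFBR1, BMPR1A and BMPR1B, the type I kinases of the 2 branches, had starts between 0.0196 and 0.0255 RPKM and bodies of 0.0527 ± 0.0139, 0.0863 ± 0.0304 and 0.0622 ± 0.0155 RPKM, all lower at the start in 6 of 6 libraries. BMPR2, the type II receptor of BMP, had the lowest body of the class at 0.0268 ± 0.0133 RPKM and a start of 0.0401 ± 0.0257, higher than the body in 4 of 6 libraries. That start holds stacked reads.

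The 2 inhibitory SMADs had some of the widest gaps between start and body. SMAD6 held 0.0191 ± 0.0193 RPKM at the start and 0.384 ± 0.0976 in the body, and SMAD7 held 0.0144 ± 0.0130 and 0.285 ± 0.0307. Both had 0 reads at the start in 2 libraries, the 5-month culture of animal 1 and the 16-month culture of animal 2, which were the 2 libraries with the fewest counted reads. Of the receptor SMADs, SMAD3 had a body of 0.289 ± 0.0544 RPKM over a start of 0.0449 ± 0.0266, whereas SMAD2, which carries the same signal, had 0.0497 ± 0.0180 and 0.0280 ± 0.0218 and a lower start in 5 of 6 libraries. The SMAD2 start holds stacked reads.

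SMAD1 was the exception among the SMADs, at a start window with stacked reads. Its start held 0.400, 0.438 and 0.165 RPKM at 5 months (animals 1, 2 and 3) and 0.411, 0.332 and 0.219 RPKM at 16 months, over 290 reads in all. The body lay at 0.0622 to 0.161 RPKM, below the start in each library, and the window upstream of the start was low as well at 0.0657 RPKM. The libraries of animal 3 were the lowest at this start, as they were in the mean start over all labelled genes. The other BMP SMADs had the usual order on average, with 0.0634 ± 0.0388 RPKM at the start and 0.182 ± 0.0277 in the body of SMAD9 and 0.0157 ± 0.0170 and 0.0355 ± 0.0160 in SMAD5. The SMAD9 start holds stacked reads as well. The shared partner SMAD4 had 0.0160 ± 0.0200 and 0.0509 ± 0.0206 RPKM.

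Around the start, the family and all genes showed opposite orders. The median over the 40 genes was 0.0556 ± 0.0241 RPKM in the window upstream of the start and 0.0328 ± 0.0125 in the start window, while the median over all labelled genes was 0.0391 ± 0.0181 and 0.0471 ± 0.0169. The median start was below the median upstream window in 6 of 6 libraries in the family, and equal to or above it in 6 of 6 over all genes, a difference that was not tested. Windows of at least 0.5 RPKM, the value at which the study divided genes into high and low, made up 5.00% of the member starts, namely GDF1 and GDF2, against 11.1% of all starts. In the bodies the share was 9.44% of member windows and 9.54% of all body windows.

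**Figure D2:**
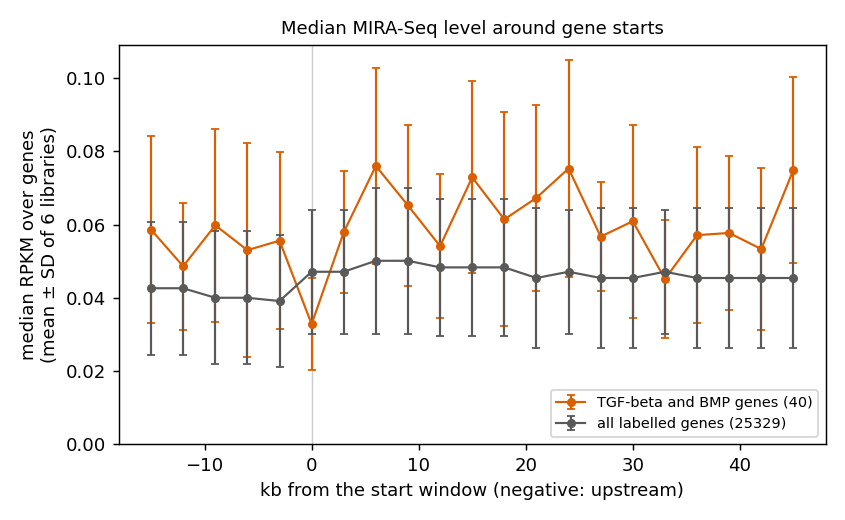
Median RPKM over genes by distance of the window from the start window in kb, as mean ± SD of 6 libraries. Orange stands for the 40 TGF-beta and BMP genes and grey for all 25329 labelled genes, X included. Windows beyond the end of short genes are included, so downstream points are positions and not gene bodies. The family's lowest point is the start window, at 0.0328 RPKM.

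Reads in the bodies were gathered in a few windows, often toward the end of the gene and at coding exons. The files number coding sequences, and in 99.6% of 13594 genes the number did not fall along the strand, so a window with a number was taken to hold a coding exon. Past the start, windows with coding exons were compared with the other windows of the gene. They were higher in 6 of 6 libraries in 19 of the 29 members with both kinds (65.5%), against a background of 52.8% of 12070 genes. This held for 10 of 12 ligands, 2 of 2 LTBPs, 3 of 6 receptors, 3 of 8 SMADs and BMP1, and the reverse in 6 of 6 libraries for BMPR1A. Without the last labelled window of each gene the count was 13 of 27 members, a share no longer above the background of 49.3%. The comparison was added after the data had been seen.

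In TGFBR2 the coding windows had a mean of 0.939 RPKM and the others 0.208. Its highest window, 66 kb from the start at chr22:5206767-5209766 (UMD v3.1), held coding exon 4 and 2.37, 2.12 and 1.83 RPKM at 5 months (animals 1, 2 and 3) and 2.50, 3.21 and 1.43 RPKM at 16 months. Another peak lay at 36 kb, chr22:5176767-5179766, with coding exon 2 and 2.06 ± 0.678 RPKM. The windows between these peaks stayed below both in every library.

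The same kind of peak was found in the matrix and ligand genes. The highest member window of all was chr23:47353993-47356992 in BMP6, 156 kb from the start and next to last in the gene, with 3.72, 3.00 and 1.59 RPKM at 5 months and 2.70, 3.37 and 1.45 RPKM at 16 months. In LTBP2 it was chr10:86210201-86213200, at coding exon 16, with 2.23, 1.55 and 3.20 RPKM at 5 months and 1.84, 1.47 and 2.03 RPKM at 16 months. Animal 3 was the lowest of the animals at the BMP6 peak and held the highest value at the LTBP2 peak. In the mean body over all labelled genes animal 3 was lowest as well, at 0.227 and 0.231 RPKM against 0.356 to 0.371. GDF10 completed the 5 highest windows with 1.83 ± 0.702 RPKM at chr28:42628965-42631964.

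SMAD3 held 1.80 ± 0.557 RPKM at chr10:13957401-13960400, 102 kb into the gene at coding exon 2, and its coding windows had a mean of 0.767 RPKM against 0.207 in the rest. In SMAD6, by contrast, coding and other windows were alike on average (0.364 and 0.389 RPKM), and coding windows were higher in 2 of 6 libraries. Of the 29 members with at least 5 windows, the highest window lay in the last of 3 equal parts of the gene in 20 (69.0%), against 48.1% of 12828 genes. It was the last labelled window in 7 (24.1%, against 15.3%). It was the start window in SMAD1 alone (3.45%, against 8.65%), a window with stacked reads.

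**Figure D3:**
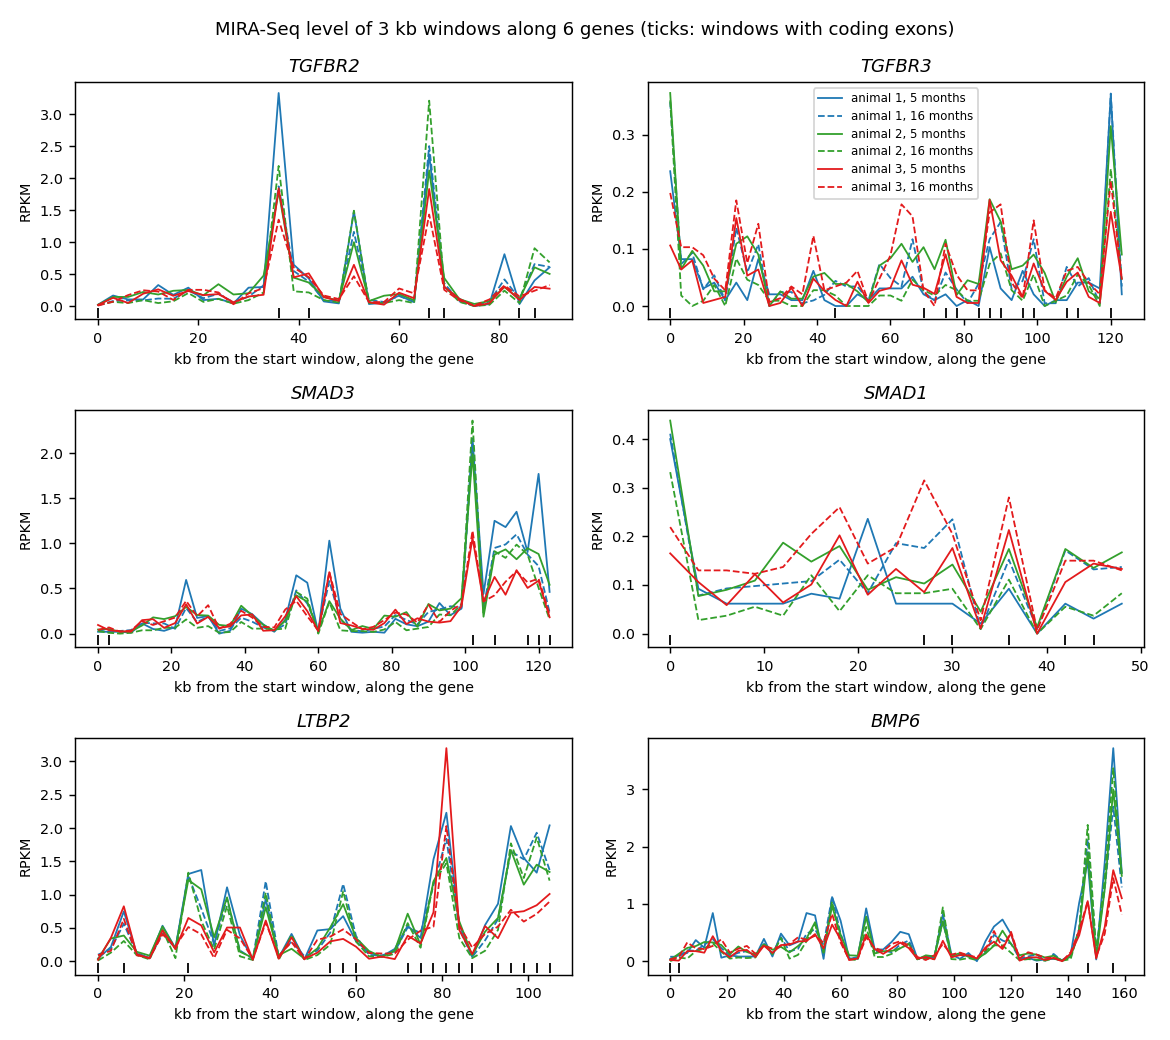
RPKM of consecutive 3 kb windows along 6 genes against the distance from the start window in kb, with 1 line per library (colour for the animal, solid for 5 and dashed for 16 months) and black ticks at windows with coding exons. In TGFBR2, SMAD3, LTBP2 and BMP6 the start is near 0 and the peaks of 1.80 to 2.64 RPKM lie far into the gene. SMAD1 peaks at the start, and TGFBR3 has similar peaks at the start (0.272 RPKM) and at 120 kb (0.280 RPKM). Both of these starts hold stacked reads.

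The main question of the design was whether the cultures differ with the age of the animal, compared within animals. No member window passed the test, and the single windows shifted slightly toward 5 months. Of the 718 windows, 168 in 29 genes had at least 1 CPM (count per M counted reads) in at least 3 libraries and could be tested, 6 of them starts and 162 in bodies. None was called at a false discovery rate (FDR) below 0.1 with a fold change of at least 2 in edgeR's quasi-likelihood test with the animal as a block, against a background of 0.185% of 104658 windows. At an unadjusted p under 0.05 there were 19 member windows (11.3%), against a background of 7.10%. DESeq2 called 0 member windows as well, with 8 at that unadjusted p.

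Of the 168 windows, 108 were higher at 5 months (64.3%, against 52.6% of all windows tested), and the median log2 fold change was 0.14 against 0.02. All 3 animals had the same direction in 49 windows (29.2%, against 26.0%), and 41 of these were higher at 5 months. By class, the median log2 difference was taken within each animal, not from the fit, and averaged over animals. It was 0.17 ± 0.15 (SD over 3 animals) in the 30 LTBP windows and 0.11 ± 0.09 in the 43 SMAD windows. It was 0.08 ± 0.08 in the 67 ligand windows and -0.02 ± 0.07 in the 19 receptor windows. On this measure all 168 member windows had 0.09 ± 0.04, and all windows tested 0.01 ± 0.01. The spread between animals was of the size of the class medians or larger. Windows of a gene lie side by side and are not independent, and 5 of the 19 windows with the lowest p were in LTBP2.

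The lowest p of the family was at the start of GDF1, chr7:4263046-4266045, and the animals did not move together there. The window held 2.30, 3.35 and 6.02 CPM at 5 months in animals 1, 2 and 3 and 5.58, 7.88 and 4.52 CPM at 16 months, so that the ages overlapped. It was higher at 16 months in animals 1 and 2, by 1.12 on the log2 scale in each, and lower in animal 3, with a fitted log2 fold change of -0.70 ± 0.22 (SE) and an edgeR FDR of 0.226. Without animal 3 it was called, at -1.24 with an FDR of 0.000338.

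In LTBP2 the window 24 kb from the start, chr10:86267201-86270200, was higher at 5 months in each animal. It held 6.16, 5.57 and 4.37 CPM at 5 months in animals 1, 2 and 3 and 3.87, 3.27 and 3.00 CPM at 16 months. No 16-month value reached the lowest 5-month value, and the log2 fold change was 0.66 ± 0.21 (SE) with an edgeR FDR of 0.228. A further LTBP2 window, 90 kb from the start at chr10:86201201-86204200, held 2.44, 2.29 and 4.29 CPM at 5 months and 1.53, 0.842 and 3.05 CPM at 16 months (log2 fold change 0.81, FDR 0.289).

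In SMAD3 the window 120 kb from the start, chr10:13975401-13978400, which holds coding exon 8, had 7.95, 4.54 and 4.76 CPM at 5 months and 3.65, 2.72 and 4.52 CPM at 16 months. In BMP1 the window 30 kb from the start, chr8:70011687-70014686, had 4.60, 3.78 and 3.47 CPM and 2.24, 2.23 and 3.30 CPM at these ages. Both were higher at 5 months in each animal, but in animal 3 by only 0.07 and 0.06 on the log2 scale. Their fitted log2 fold changes were 0.66 and 0.63, with edgeR FDRs of 0.239 and 0.378.

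**Figure D4:**
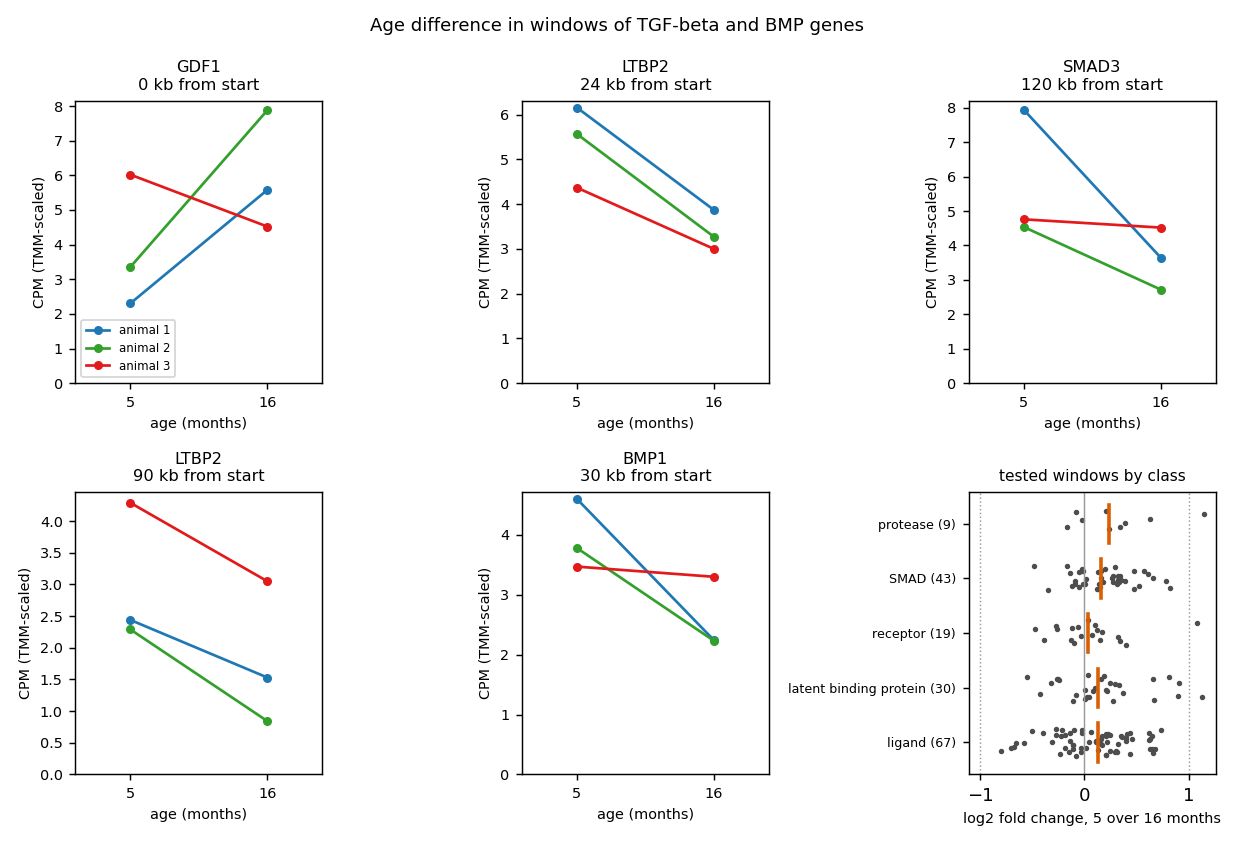
CPM at 5 and 16 months in the 5 member windows with the lowest p, with a line per animal, and the fitted log2 fold change (5 over 16 months) of the 168 tested windows by class, with the number of windows in brackets, an orange bar at the class median and dotted lines at a 2-fold change. In GDF1 animal 3 (red) moves against the others, and the first LTBP2 window falls in all 3 animals.

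Fitted on starts alone, 6 member starts could be tested and none was called, against a background of 0% of 5687 starts. Of the 6, 2 were higher at 5 months (33.3%, against 49.9% of all starts tested). GDF1 alone was at an unadjusted p under 0.05, against a background of 8.44%, with a log2 fold change of -0.70 and an edgeR FDR of 0.443. GDF2, a circulating ligand of endothelium also known as BMP9, had -0.40, and TGFBR3 -0.47, with FDRs of 0.654 and 0.765. The other 34 starts held too few reads for the test, which includes the starts of all 3 TGF-beta isoforms, of every LTBP and of each SMAD other than SMAD1. For these a change with age was not detectable at this depth.

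Fitted on whole bodies, 35 of the 40 members were tested and none was called, against a background of 0.0129% of 15486 bodies. No member body was at an unadjusted p under 0.05, against a background of 0.446%. Of the 35 bodies, 20 were higher at 5 months (57.1%, against 54.0% of all bodies tested). The lowest p was in GDF11, with a log2 fold change of 0.71, followed by GDF2 with 0.72 and TGFB3 with 0.37, all at an edgeR FDR of 1.00. TGFBR2 and SMAD3 differed between ages by 0.14 and 0.21 and INHBA by less than 0.01 on the log2 scale.

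More windows were called between animals than between ages. In a comparison added after the data had been seen, 37 of the 168 windows (22.0%) were called between animals in an edgeR model with age as a term, at the same FDR and fold change, against a background of 20.6% of all windows tested. Animal 3 was the highest in 36 of the 37 and animal 2 the lowest in 30, an order also seen over all windows called, where animal 3 was highest in 17628 of 21512. This order is on counts scaled over the windows tested, not on RPKM. With scaling factors taken from all windows in place of those tested, 0 of the 168 windows were called, against 729 of all 104658. With RLE factors 37 were called (21748 in all), and by library size only 33 (31436 in all). The number called thus varied with the scaling, and the order of the animals was not counted under these alternatives. The lowest p was at the body window of GDF2, chr28:42610965-42613964, with 5.15 and 4.17 CPM in animal 3 against 1.05 to 2.34 CPM in the other 4 libraries.

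A wider list of 58 genes of the pathway (other activin receptors, secreted antagonists such as noggin and follistatin, matrix partners and target genes) was looked at beside the family. Of these, 55 were labelled, and 180 windows in 39 genes were tested by age. A single window was called (0.556%, against 0.185% of all windows tested), in ACVR1B, a type I receptor of activin, and 19 were at an unadjusted p under 0.05 (10.6%, against 7.10%). It lies at chr5:28052106-28055105 and held 4.55, 1.62 and 4.11 CPM at 5 months in animals 1, 2 and 3 and 1.43, 0.694 and 3.35 CPM at 16 months. Each animal was higher at 5 months but the ages overlapped, and the log2 fold change was 1.04 ± 0.27 (SE) with an edgeR FDR of 0.0658. Leaving out animal 1 or animal 2 ended the call, with log2 fold changes of 0.65 and 0.99. The fit without the animal block (0.91), DESeq2, scaling by library size or by factors from all windows, a filter of 0.5 CPM and no filter ended it too. Over all alternatives the log2 fold change ranged from 0.65 to 1.52 and the FDR from 0.00597 to 1.00.

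None of the 13 tested starts and none of the 41 tested bodies of this list was called. Start against body, the list had the same order as the family, with a start lower in 6 of 6 libraries in 32 of 51 genes (62.7%) and higher in 7. Its median start was 0.0662 ± 0.0117 RPKM and its median body 0.184 ± 0.0491 RPKM.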

How the data were processed

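MIRA-Seq libraries of 6 cultures were analysed, grouped by the age and animal number in the labels. The RNA-Seq and cytokine experiments of the study were not analysed here. The authors aligned the reads with NextGENe 2.3.4 to UMD v3.1 and deposited the raw read counts of sequential 3 kb windows with gene labels, not normalized. The highest depth of coverage per window, a signal also deposited by the authors and not scaled, was used only to find windows of stacked reads, where in any library it was at least 0.5 of the count and the count at least 10. How PCR copies were handled is not stated, so reads may not be independent molecules. Gene symbols matched the RefSeq table for 40 of 40 members. No UMD v3.1 genome was at hand, so positions are those printed in the files and no sequence is shown.

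Counts were fitted with edgeR 4.0.16 in R 4.3.3 (quasi-likelihood test, animal as block, TMM factors over the features tested, Benjamini-Hochberg adjustment over all features tested), after a filter of 1 CPM in at least 3 libraries. DESeq2 1.42.0 was an alternative. Positive log2 fold changes are higher at 5 months. SE is the log2 fold change over the root of the F statistic. CPM in the age comparison are TMM-scaled, and single-animal differences use log2(CPM + 0.5). Start and body were compared with an exact two-sided sign-flip test in genes with at least 20 counts. Other steps used Python 3.11.15, numpy 2.4.6, pandas 2.3.3 and matplotlib 3.10.9. The fits were tested on simulated data.

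The pairing comes from the animals. Deviations of the libraries from their age mean correlated at 0.290, 0.544 and 0.710 within animals 1, 2 and 3. The cultures are separate samples, but each animal and age has only 1 library. Members and lists were chosen with earlier results of these data known. Genes were named by rule: the main ligands, every LTBP, receptor and SMAD, called features, the 5 windows, 3 starts and 3 bodies of lowest p, the 5 highest windows, and the highest and lowest gene of a class at start and body. GDF10, GDF15, BMP6 and GDF2 also enter as windows or by their order.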

Additional observations from a re-analysis of the deposited data

Results flagged for a closer look

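BMP15, an oocyte ligand of this family, is labelled on the X chromosome, outside the chromosomes to which the family was limited. Its 3 windows held 162 reads over the 6 libraries, with 0 to 23 reads per window and library, and were in no comparison.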

How the results depend on the processing

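No member window, start or body was called by age in the fits without the replicate block (0 windows, with 3 at an unadjusted p under 0.05), with the likelihood-ratio test, DESeq2, other scaling factors, no filter or no fold change threshold. At 0.5 CPM 1 window was called (TGFB3, chr10:88262601, log2 fold change 1.91). Leaving out 1 animal gave 0 to 4 windows and 0 to 1 starts, all calls without animal 3: GDF1 (also its start, -1.21), BMP1 chr8:70023687 (1.83), SMAD3 chr10:13978401 (1.26) and TGFB3 chr10:88262601 (2.16). That fit also called 1278 of 103419 windows and 223 of 5799 starts in all. Windows called in all were 194 in the main fit, 14 without animal 1 and 68 without animal 2. All windows called were 0 without the block, 15 with DESeq2, 99 by library size only, 25 with factors from all windows, 96 at 0.5 CPM, 2 with no filter and 340 with no fold change threshold. Without animal 2, 14 of 35 member bodies were at an unadjusted p under 0.05 and none was called. That fit called 339 of 15615 bodies in all, against 2 in the main fit. The share of all bodies at that unadjusted p was not counted. Member windows called between animals were 0 with factors from all windows, where 729 of 104658 windows were called in all. The cause was not tested.

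Starts lower in every library numbered 21 (of 32 members, without stacked windows) to 27 (of 40, without animal 3) under the alternatives, against 26. With the window upstream they numbered 22 of 40, and the share fell to 55.0%, against 46.8% of all genes. The background share over all genes was 45.9% to 52.8% under the alternatives. Starts higher in every library numbered 1 (without stacked windows) to 5 (without animal 2 or 3), against 3. The difference of start minus body turned with the window upstream in BMP2 (0.00106 RPKM), GDF7 (-0.0449) and TGFB1 (0.0429), and without stacked windows in BMP2 (0.0138) and GDF7 (-0.139). Leaving out 1 animal it ranged from -0.0189 to 0.00194 in BMP10, from -0.00846 to 0.00261 in BMP2, from -0.0152 to 0.00624 in BMP5 and from -0.0534 to 0.0155 in BMP7. With the mean over genes in place of the median, starts were 0.132 (ligands), 0.0657 (receptors) and 0.0661 RPKM (SMADs). Bodies were then 0.321 (ligands), 0.173 (SMADs), 0.105 (receptors) and 0.278 RPKM (all members). Over all labelled genes these means were 0.222 RPKM at the start and 0.318 in the body. Per counted instead of matched read, starts were 0.0701, 0.0445 and 0.0409, and bodies 0.323 (ligands), 0.875 (LTBPs), 0.0970 (receptors) and 0.235 (SMADs). With the window upstream the SMAD start was 0.0505. With a median of 4.5 reads per member start and library, and 27 of 240 such values at 0, differences among starts are limited by depth.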
